A study of Mus musculus with 2 samples.

Results

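The 9 genes described here encode the neuronal nicotinic acetylcholine receptor subunits Chrna2, Chrna3, Chrna4, Chrna5, Chrna6, Chrna7, Chrnb2, Chrnb3 and Chrnb4, taken by name from the 28692 genes listed for each library. They were followed across medial habenula-like (MHb-like) neurons, lateral habenula-like (LHb-like) neurons, thalamus-like neurons and glia of the adult mouse habenula, and pairs of them were followed within single cells. All 9 were present in both count matrices.

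The study profiled habenula punches by droplet single-cell RNA sequencing that counts the 3′ end of transcripts, in 1 library from mice given foot shocks and 1 library from control mice. Each library pooled 4 male C57BL/6 mice aged P50 to P55. The foot shock mice received 30 shocks of 0.3 mA and 1 s at a mean interval of 116 s within a 60 min session, after 10 min a day of chamber habituation for 7 days. The control mice were taken directly from the home cage, and no chamber habituation is given for them. Shock and exposure to the chamber, on that day or before it, thus cannot be told apart. Both groups had been handled for 5 min a day for 7 days. In both groups the brains were perfused and cut in a solution holding blockers of sodium channels and glutamate receptors and of transcription and translation, and cells were released with pronase.

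Nicotinic receptors are cation channels built from subunits around a central pore, and acetylcholine and nicotine open them. The alpha subunits Chrna3 and Chrna4 form binding sites for acetylcholine together with the beta subunits Chrnb2 and Chrnb4, Chrna5 and Chrnb3 join such receptors as accessory subunits, and Chrna7 can assemble on its own. The MHb is known for dense nicotinic receptors that hold alpha-3 and beta-4 subunits, and its ventral neurons release acetylcholine and glutamate in the interpeduncular nucleus.

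Chrna3 (chr9:55010111-55026562, minus strand) and Chrnb4 (chr9:55028154-55048779, minus strand) lie next to each other in mm10 with 1591 bases between them, and Chrna5 (chr9:54980880-55007779, plus strand) ends 2331 bases from the end of Chrna3. Chrnb3 (chr8:27368711-27399730, plus strand) and Chrna6 (chr8:27403212-27413944, minus strand) face each other end to end across 3481 bases. Chrna4 (chr2:181018380-181043546, minus strand), Chrnb2 (chr3:89746195-89764632, minus strand), Chrna7 (chr7:63098692-63212569, minus strand) and Chrna2 (chr14:66135039-66152948, plus strand) lie apart. None of the paired genes overlapped in the annotation.

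The windows of 250 bases before the start of Chrna3, Chrnb4 and Chrnb2 are shown because the first pair of genes varied together across cell types while Chrnb2 did not follow them. The sequences are from RefSeq on GRCm38.p6, count from RefSeq's start and read 5′ to 3′ on each gene's own strand. RefSeq's start of Chrnb4 lies inside the GENCODE span given above, so most of its window overlaps that span. Capitals mark the letters GGGCGG or its reverse complement, known as the GC box.
Chrna3, chr9:55026563-55026812, minus strand: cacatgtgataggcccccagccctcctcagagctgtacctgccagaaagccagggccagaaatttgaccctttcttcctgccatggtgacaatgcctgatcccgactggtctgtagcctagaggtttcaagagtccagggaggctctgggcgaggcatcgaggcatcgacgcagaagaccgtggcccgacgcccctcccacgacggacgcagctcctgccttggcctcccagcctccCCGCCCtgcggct
Chrnb4, chr9:55048545-55048794, minus strand: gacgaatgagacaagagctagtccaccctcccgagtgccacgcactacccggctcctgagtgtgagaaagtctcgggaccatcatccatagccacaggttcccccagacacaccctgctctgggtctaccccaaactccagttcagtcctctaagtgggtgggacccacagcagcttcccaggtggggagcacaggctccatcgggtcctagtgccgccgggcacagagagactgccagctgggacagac
Chrnb2, chr3:89764633-89764882, minus strand: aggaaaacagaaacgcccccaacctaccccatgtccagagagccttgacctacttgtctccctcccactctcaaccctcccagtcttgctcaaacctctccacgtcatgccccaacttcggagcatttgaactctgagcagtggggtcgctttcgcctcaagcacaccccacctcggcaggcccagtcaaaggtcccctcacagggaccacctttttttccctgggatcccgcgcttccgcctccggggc
The Chrna3 window held 1 GC box, and the Chrnb4 and Chrnb2 windows held 0. The letters CANNTG, known as the E box and identical on both strands, occurred 2 times in the Chrna3 window, 2 times in the Chrnb4 window and 1 time in the Chrnb2 window. Over all 32851 mouse windows of the same length, 32.74% held a GC box on either strand and 66.22% held an E box. Windows were found for 6 of the 9 subunit genes.

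The foot shock library held 22189951 unique molecular identifiers (UMIs, 1 per captured transcript) and gave 4760 cells with a median of 2690.5 UMIs. The control library held 23095501 UMIs and gave 4887 cells with a median of 2417 UMIs. The 2 libraries shared 32 cell barcodes. The foot shock library held 502 keratin-positive epithelial cells and 47 fibroblast-like cells with Xist among their leading genes, against 0 of both in the control library, although all mice are labelled male. These cells were in none of the neuron, oligodendrocyte-lineage, astrocyte-like or microglia-like classes. Each group was 1 library, so there is no replicate and no test, and all intervals are 95% intervals that cover counting error only.

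Cells were grouped with every nicotinic subunit gene and every gene of an accessory list left out of the clustering, and classes were named from marker genes. MHb-like neurons numbered 1622 in the foot shock library and 1213 in the control library. Each cluster of this class held from 4 to 6 of the 8 MHb markers under the naming rule. In MHb-like neurons Tac2, a tachykinin precursor gene of the MHb, stood at 612 and 581 CPM (each gene's share of the class's UMIs, scaled to a common total). LHb-like neurons numbered 1045 and 1168, with Gap43, a growth cone protein gene, at 964 and 942 CPM and Tac2 at 23.2 and 8.95 CPM. Thalamus-like neurons numbered 58 and 135, with Gbx2, a thalamic transcription factor, at 268 and 251 CPM, and Pou4f1, the habenular transcription factor, at 11.3 and 9.01 CPM. Free RNA was measured in barcodes with 10 to 100 UMIs, and a level at or below it is not read as expression.

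Chrna3, the alpha subunit that pairs with beta-4, had 2165 UMIs in foot shock MHb-like neurons, or 384.9 CPM (368.8 to 401.4), and 1869 UMIs in control MHb-like neurons, or 370.8 CPM (354.2 to 388.0). In LHb-like neurons it stood at 8.36 CPM (5.72 to 11.8) after foot shock and at 6.81 CPM (4.74 to 9.47) in controls. In thalamus-like neurons it stood at 3.77 CPM and 3.86 CPM, from 1 and 3 UMIs. Both non-MHb levels lay below free RNA, which carried Chrna3 at 45.1 CPM in the foot shock library and 32.4 CPM in the control library.

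Chrnb4, the beta subunit encoded beside Chrna3, followed the same order, with 368.7 CPM (353.0 to 384.9) in foot shock and 350.4 CPM (334.2 to 367.1) in control MHb-like neurons. It stood at 14.4 CPM and 8.56 CPM in LHb-like neurons of the 2 libraries, again below the 51.1 CPM and 48.8 CPM of free RNA. Chrnb3, an accessory subunit that does not form the binding site, had 130.8 CPM (121.5 to 140.6) in foot shock and 119.4 CPM (110.1 to 129.4) in control MHb-like neurons. Its 7.31 CPM and 5.06 CPM in LHb-like neurons lay below free RNA, and thalamus-like neurons held 0 UMIs in both libraries, which allows up to 11.3 CPM after foot shock and 3.86 CPM in controls.

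Chrna4, the alpha subunit of the widespread brain receptor with beta-2, was shared by all neuron classes at unequal levels. It stood at 81.8 CPM (74.5 to 89.6) in foot shock and 97.2 CPM (88.8 to 106) in control MHb-like neurons, at 28.2 CPM (23.1 to 34.1) and 26.3 CPM (22.0 to 31.1) in LHb-like neurons, and at 124.5 CPM (85.7 to 175) and 122.3 CPM (98.9 to 150) in thalamus-like neurons. The order of the classes was thalamus-like, MHb-like and LHb-like in both libraries, and LHb-like neurons stood apart from both others. The MHb-like over thalamus-like ratio was 0.657 (0.461 to 0.966) after foot shock and 0.795 (0.637 to 1.00) in controls, so this pair differed beyond counting error in the foot shock library alone. Free RNA carried Chrna4 at 11.2 CPM and 11.7 CPM.

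Chrnb2, the partner of Chrna4, was nearly level across neurons. It stood at 82.5 CPM (75.2 to 90.3) in foot shock and 79.8 CPM (72.2 to 87.9) in control MHb-like neurons. LHb-like neurons had 81.0 CPM (72.2 to 90.5) and 94.4 CPM (86.1 to 103), and thalamus-like neurons had 94.3 CPM (61.0 to 139) and 104.3 CPM (82.8 to 130). Oligodendrocyte-like cells had 2.41 CPM and 3.80 CPM, below the 16.9 CPM and 19.7 CPM of free RNA.

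**Figure D1:**
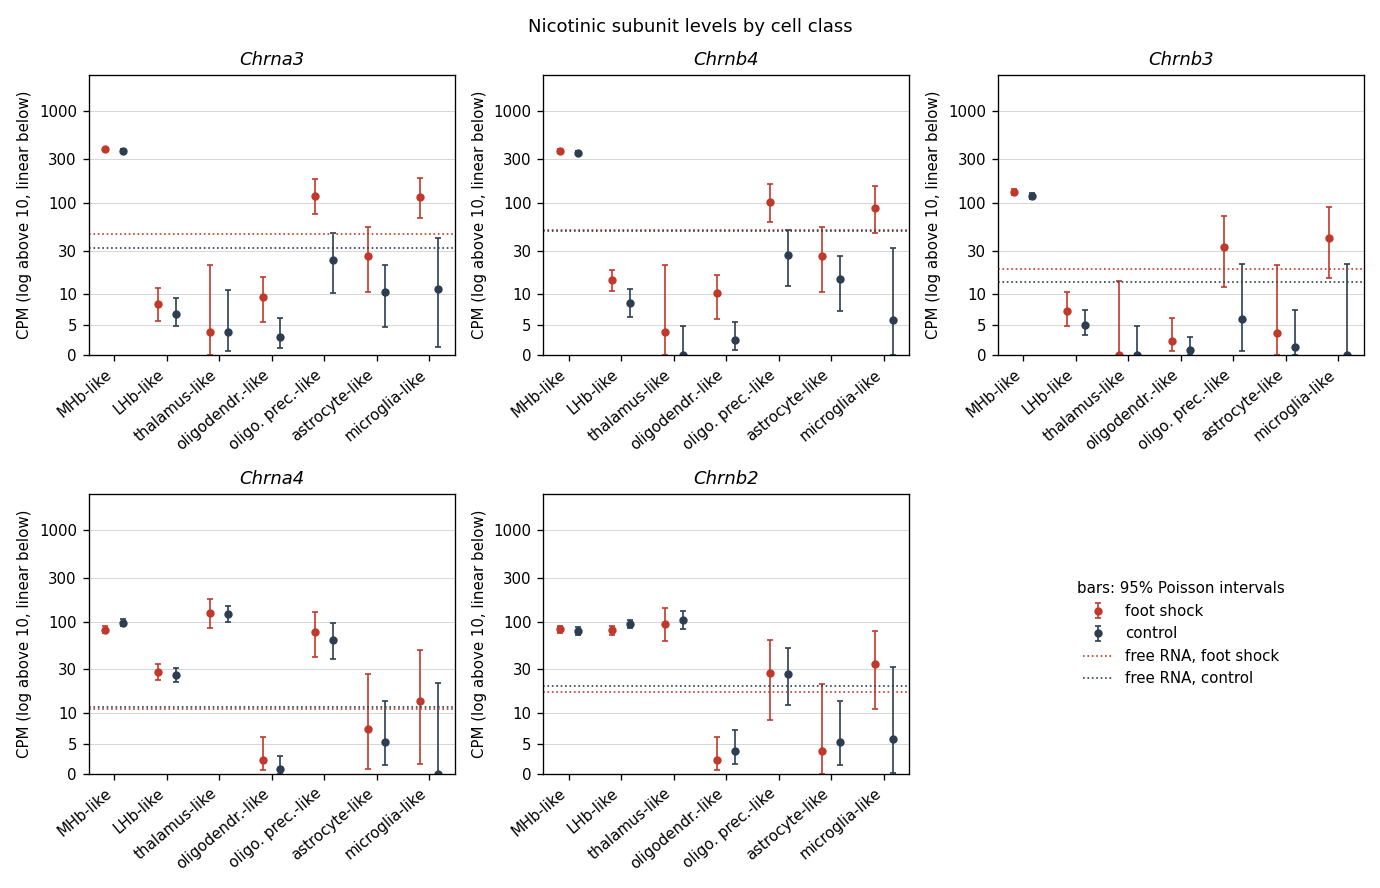
Level of 5 subunit genes in CPM by cell class, on an axis that is logarithmic above 10 and linear below; points are single libraries (foot shock left, control right), bars are 95% Poisson intervals and dotted lines are free RNA. Chrna3, Chrnb4 and Chrnb3 stand far above free RNA in MHb-like neurons (384.9 and 370.8 CPM for Chrna3) and below it in LHb-like and thalamus-like neurons, while Chrnb2 is near the same level in all 3 neuron classes.

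MHb-like neurons exceeded LHb-like neurons by 46.1-fold (32.5 to 67.5) for Chrna3 in the foot shock library and by 54.5-fold (39.0 to 78.4) in the control library. The same ratio was 25.7-fold and 40.9-fold for Chrnb4, and 17.9-fold and 23.6-fold for Chrnb3. Because the LHb-like levels of these 3 genes lay below free RNA, the size of each ratio depends on how much free RNA the LHb-like counts contain. Chrna4 was 2.90-fold and 3.70-fold higher (1.54 and 1.89 on the log2 scale), or 0.85 and 0.96 on the log2 scale when classes were set from marker UMIs of single cells, and Chrnb2 had ratios of 1.02 (0.881 to 1.18) and 0.845 (0.739 to 0.967). In both libraries 4 of the 5 subunits with at least 20 UMIs were at least 2-fold higher in MHb-like neurons and 0 were 2-fold lower. Over all genes 6.36% were called higher in the foot shock library and 6.63% in the control library, and 12.5% and 13.7% were called lower. The median log2 ratio of the 5 subunits was 4.137 and 4.535, against -0.14 and -0.16 over all genes tested.

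Against thalamus-like neurons, 3 of 5 measured subunits were at least 2-fold higher in MHb-like neurons in both libraries, namely Chrna3, Chrnb4 and Chrnb3, and 0 were 2-fold lower. Of all genes, 18.2% were called higher in the foot shock library and 13.1% in the control library, and 15.8% and 14.9% were called lower. Chrna4 ran lower in LHb-like than in thalamus-like neurons, at 0.227-fold (0.152 to 0.346) and 0.215-fold (0.164 to 0.282). It was the single member at least 2-fold lower in LHb-like neurons in either library, where 9.14% and 7.33% of all genes were called lower. For members called higher in LHb-like than in thalamus-like neurons the background was 16.2% and 11.1%, and the 3 and 2 members called had levels below free RNA in both classes.

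Chrna5, Chrna6 and Chrna7 were near the detection limit and Chrna2 was at 0. Chrna5, the accessory subunit of the chromosome 9 group, gave 24 UMIs in 24 cells of both libraries, of which 10 in foot shock and 12 in control were MHb-like neurons. Its level there was 1.78 CPM (0.852 to 3.27) after foot shock and 2.38 CPM (1.23 to 4.16) in controls, against 0 and 0.277 CPM in free RNA. Of those MHb-like cells, 6 of 10 and 10 of 12 also held a Chrna3 UMI. A low UMI count is not a measure of the protein.

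Chrna6, a subunit known from receptors on dopamine neurons, gave 26 UMIs, of which 10 and 9 were in MHb-like neurons (1.78 and 1.79 CPM). They came from 9 foot shock cells and 6 control cells, and 6 of 9 and 5 of 6 of these also held a Chrnb3 UMI. The subcluster marked by Ebf3 and Prox1 supplied 5 of the 9 cells and 2 of the 6 cells. Chrna7 gave 8 UMIs in all, of which LHb-like neurons held 3 and MHb-like neurons of both libraries held 0. Chrna2 gave 0 UMIs over the kept cells of both libraries. Of the 7 other subunit genes in the files (Chrna1, Chrna9, Chrna10, Chrnb1, Chrnd, Chrne and Chrng), 0 reached 20 UMIs over MHb-like and LHb-like neurons in both libraries.

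MHb-like neurons were divided into 10 subclusters, and the subunits were not spread evenly over them. The subclusters are named by a leading or marker gene. The Fgf1 subcluster (260 foot shock and 181 control cells) and the Synpr subcluster (29 and 46 cells) met the cholinergic rule. A set of 5 met the rule of Nppa and Syt15: the Syt15 (242 and 173 cells), Wscd1 (157 and 103), Calcrl (94 and 43), Sema3d (217 and 193) and Zfhx4 (65 and 90) subclusters. The others were the Ebf3 subcluster (128 and 115 cells), the Cck subcluster (221 and 161) and an unassigned one (209 and 108). The Synpr subcluster had a median of only 1301 UMIs a cell.

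Chrna3 was highest in the Synpr subcluster, at 996 CPM (724 to 1337) after foot shock and 966 CPM (735 to 1246) in controls. The Ebf3 subcluster (601 and 558 CPM) and the Fgf1 subcluster (564 and 562 CPM) came next and did not differ beyond counting error. At the other end, the Cck subcluster had 110 CPM (86.1 to 138) and 77.9 CPM (57.4 to 103), and the Sema3d subcluster above it was 2.04-fold (1.53 to 2.73) and 3.05-fold (2.21 to 4.30) higher. The rest lay between 218 and 419 CPM in the foot shock library and between 238 and 412 CPM in the control library, and most neighbours in that order overlapped. The Cck subcluster also had 0 UMIs of Slc18a3, the vesicular acetylcholine transporter, in both libraries, and the Fgf1 subcluster had 165.0 CPM after foot shock and 122 CPM in controls. Slc18a3 is one of the genes of the cholinergic rule, so its level in the Fgf1 subcluster is no separate result.

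Chrnb4 had the same subclusters at its ends. The Synpr subcluster had 928 CPM and 704 CPM and the Cck subcluster had 135 CPM (109 to 166) and 148 CPM (119 to 181). The other 8 subclusters lay between 247 and 476 CPM in the foot shock library and between 308 and 447 CPM in the control library.

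The balance of these neighbouring genes differed between subclusters. In the Fgf1 subcluster Chrna3 gave 1.23 UMIs (1.10 to 1.37) per Chrnb4 UMI after foot shock and 1.26 (1.11 to 1.43) in controls, and in the Ebf3 subcluster 1.32 (1.10 to 1.58) and 1.26 (1.05 to 1.52). In the Sema3d subcluster the ratio was 0.729 (0.586 to 0.906) and 0.713 (0.582 to 0.872), and in the Cck subcluster 0.813 (0.590 to 1.12) and 0.528 (0.364 to 0.756). The intervals of the first pair of subclusters did not overlap those of the Sema3d subcluster in either library. UMIs are not divided by transcript length, and capture can differ between genes, so the difference between subclusters can be read but not the value of 1.

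Chrnb3 and Chrna4 were highest in different subclusters. Chrnb3 reached 292 CPM (263 to 323) after foot shock and 299.9 CPM (267 to 336) in controls in the Fgf1 subcluster, and 3.02 CPM and 1.41 CPM, from 2 and 1 UMIs, in the Sema3d subcluster. Chrna4 stood at 8.77 CPM (4.38 to 15.7) and 2.01 CPM (0.244 to 7.27) in the Fgf1 subcluster, both below free RNA, and at 130.0 CPM (104 to 160.5) and 166 CPM (137 to 199) in the Sema3d subcluster. The Synpr subcluster, the other cholinergic one, had 0 Chrna4 UMIs after foot shock and 5 UMIs (81.9 CPM, 26.6 to 191) in controls, too few to place it.

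Between these ends Chrnb3 took intermediate levels. The Calcrl subcluster had 261 and 228 CPM, the Synpr subcluster 181 and 295 CPM, the Ebf3 subcluster 186 and 236 CPM and the unassigned one 169 and 152.5 CPM, and no neighbours among these and the Fgf1 subcluster differed in both libraries. Below them, in both libraries, came the Wscd1 subcluster (85.6 and 68.9 CPM) and the Syt15 subcluster (34.9 and 25.2 CPM). The unassigned subcluster exceeded Wscd1 by 1.97-fold (1.35 to 2.91) and 2.21-fold (1.40 to 3.60), Wscd1 exceeded Syt15 by 2.45-fold (1.54 to 3.95) and 2.73-fold (1.48 to 5.14), and Syt15 exceeded Cck by 3.925-fold (1.63 to 11.4) and 3.885-fold (1.301 to 15.6). The Cck subcluster (8.89 and 6.49 CPM) and the Zfhx4 subcluster (7.26 and 0 CPM) lay below free RNA, as the Sema3d subcluster did.

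Chrna4 was highest in the Syt15 (157 and 189 CPM), Zfhx4 (152 and 166 CPM), Sema3d and Wscd1 (124 and 135 CPM) subclusters, whose neighbours in the order overlapped. The Cck subcluster had 35.6 CPM (22.8 to 52.9) and 34.1 CPM (21.1 to 52.1), still 4.06-fold (1.91 to 9.18) and 16.9-fold (4.14 to 149) above the Fgf1 subcluster. The Tac1 gene, a tachykinin precursor of the dorsal MHb, was at 345 and 334 CPM in the Cck subcluster, 227 and 228 CPM in the Sema3d subcluster and 123 and 116 CPM in the Zfhx4 subcluster. The Wscd1 subcluster, with Chrna4 in the upper range, had Tac1 at only 5.71 and 0 CPM.

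Chrnb2 ran from 272 CPM (140 to 475) and 197 CPM (102 to 343) in the Synpr subcluster and 143 and 117 CPM in the Fgf1 subcluster to 33.25 CPM (20.8 to 50.3) and 31.0 CPM (19.4 to 46.9) in the Sema3d subcluster. The Fgf1 subcluster was thus high in Chrnb2 and low in Chrna4, its known partner, and the Sema3d subcluster was the reverse. No pair of neighbours in the order of Chrnb2 differed in both libraries. On the log2 scale the cholinergic subtype exceeded the Cck subtype by 2.40 and 2.91 for Chrna3, by 5.02 and 5.53 for Chrnb3 and by 1.93 and 1.47 for Chrnb2, and Chrna4 differed by -2.07 and -2.36. When the neurons were instead divided by single UMIs of cholinergic genes and Tac1, the Chrna4 difference was -0.25 (-0.72 to 0.24) and -0.21 (-0.62 to 0.22), and the other 4 genes stayed higher in the cholinergic cells.

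**Figure D2:**
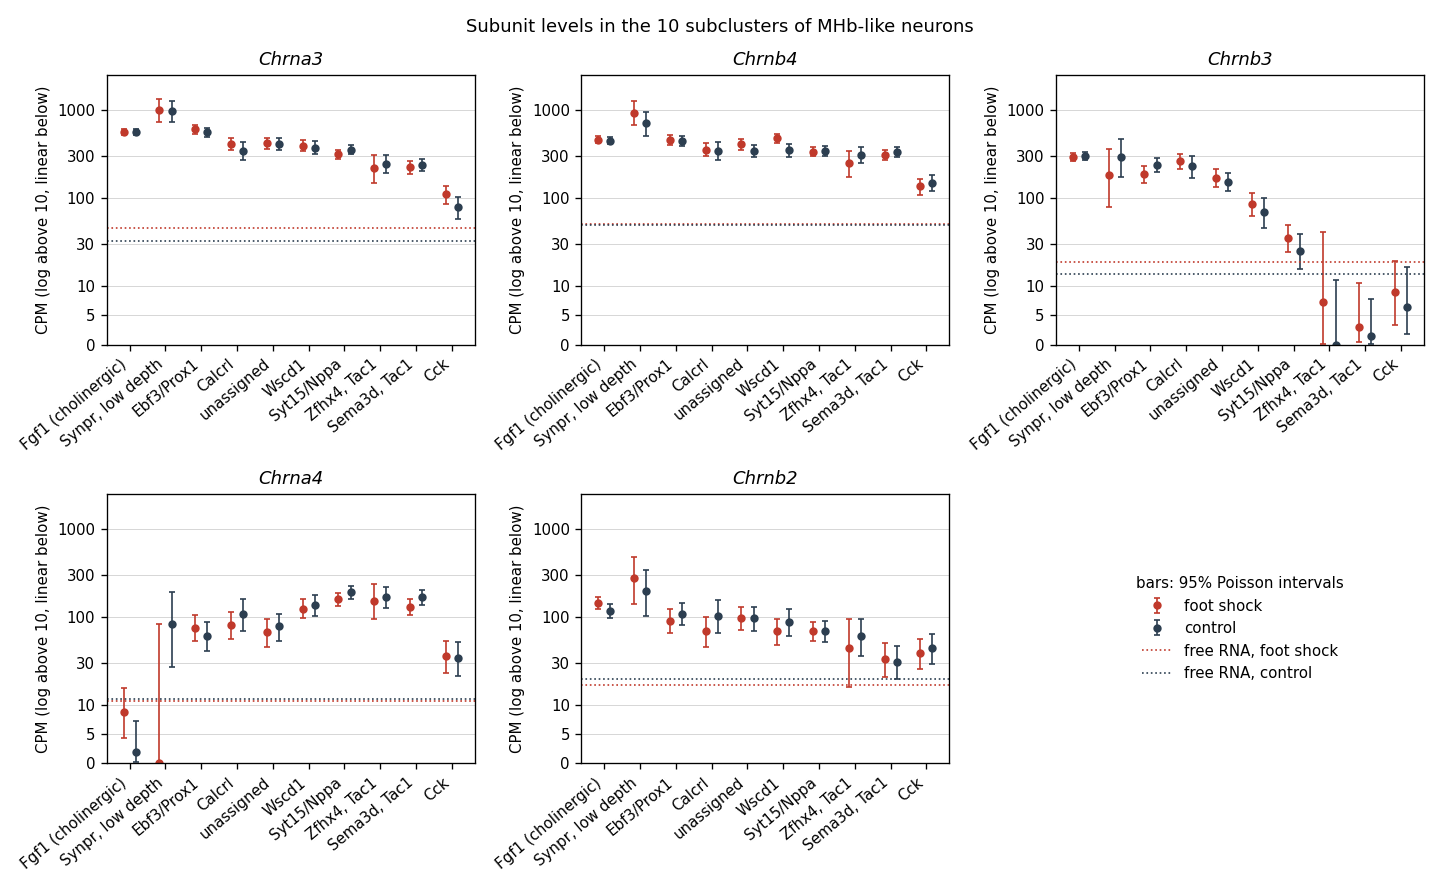
Level of 5 subunit genes in CPM in the 10 subclusters of MHb-like neurons, on an axis that is logarithmic above 10 and linear below; points are single libraries (foot shock left, control right), bars are 95% Poisson intervals and dotted lines are free RNA. Chrnb3 drops from 292 and 299.9 CPM in the Fgf1 subcluster to near 0 in the Sema3d, Zfhx4 and Cck subclusters, while Chrna4 is below free RNA in the Fgf1 subcluster and highest in the Syt15 subcluster.

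In LHb-like neurons Chrnb2 was the subunit found throughout. Among the 10 subclusters with at least 20 cells in each library it ranged from 43.5 CPM to 152.8 CPM after foot shock and from 26.9 CPM to 124 CPM in controls, and no pair of neighbours in that order differed in both libraries. The Cxcl13 subcluster (152.8 and 119 CPM), the Chrm2 subcluster (122 and 124 CPM) and the Ddc subcluster (107 and 102 CPM) led it. The lowest was a low-depth subcluster, at 43.5 CPM (18.8 to 85.7) and 26.9 CPM (7.34 to 68.96), of which the control interval held the free RNA level.

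Chrna4 was uneven among LHb-like subclusters. It was highest by the mean of both libraries in a Sema3c subcluster of 158 and 186 cells, at 79.6 CPM (57.8 to 107) after foot shock and 54.5 CPM (39.9 to 72.7) in controls. The Peg10 subcluster had 37.2 CPM (20.8 to 61.4) and 63.0 CPM (43.4 to 88.5). A subcluster led by Gad1, Gad2 and Slc32a1, genes of GABA synthesis and release, had 69.2 and 41.7 CPM from 7 and 4 UMIs. Pou4f1 was only 23.5 and 15.4 CPM in the Sema3c subcluster and 19.8 and 41.7 CPM in the Gad1 subcluster, against 374 and 411 CPM over all LHb-like neurons, so the habenular label of these cells goes against that marker. Without these 2 subclusters, an alternative chosen after seeing the data, LHb-like Chrna4 was 17.95 CPM and 20.2 CPM. In the Ddc, low-depth, Cxcl13, Sst and Megf11 subclusters the interval of Chrna4 reached below free RNA in both libraries.

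The thalamus-like neurons carried Chrna4 with Chrnb2 and little else. At 1000 UMIs a cell, 15.3% (7.17 to 27.1) of foot shock and 13.6% (8.30 to 20.5) of control thalamus-like cells held a Chrna4 UMI, against 2.94% (2.00 to 4.15) and 2.47% (1.66 to 3.53) of LHb-like cells. The unthinned shares were 39.7% and 40.7% for thalamus-like cells and 9.28% and 9.76% for LHb-like cells.

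**Figure D3:**
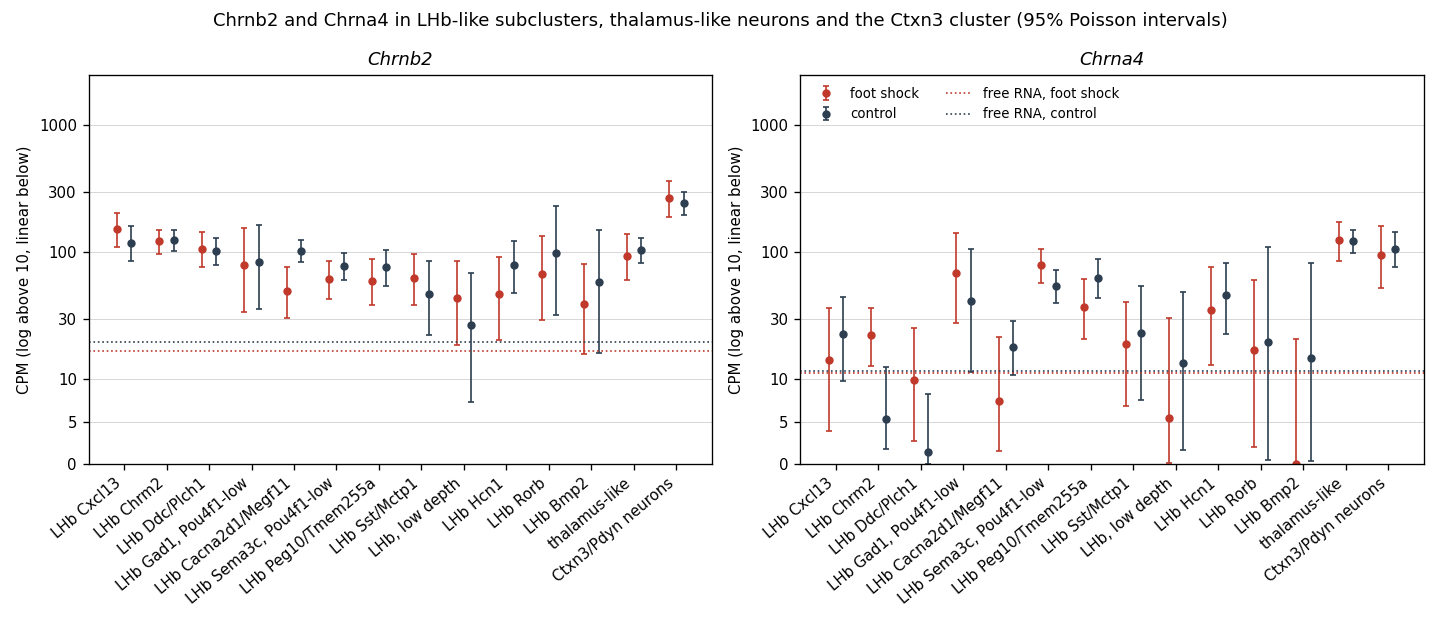
Level of Chrnb2 and Chrna4 in CPM in the 12 subclusters of LHb-like neurons, in thalamus-like neurons and in a neuron cluster led by Ctxn3 and Pdyn, on an axis that is logarithmic above 10 and linear below; points are single libraries (foot shock left, control right), bars are 95% Poisson intervals and dotted lines are free RNA. The points of Chrnb2 lie above free RNA, and Chrna4 is near free RNA in several LHb-like subclusters but at 124.5 and 122.3 CPM in thalamus-like neurons.

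Single cells were compared after thinning each to 2000 UMIs, because deeper cells show more genes. Shallower cells were left out, and not evenly. The Synpr subcluster kept 4 of 29 foot shock and 2 of 46 control cells, and the unassigned one of MHb-like neurons 114 of 209 and 99 of 108. In MHb-like neurons 80.9% (78.7 to 82.9) of 1398 foot shock cells and 79.7% (77.2 to 82.0) of 1102 control cells held at least 1 of the 9 subunits. The shares were 40.3% and 38.7% in thalamus-like, 21.5% and 23.03% in LHb-like and 4.61% and 1.91% in oligodendrocyte-like cells, which serve as the background. At the same depth, MHb-like cells held 1.43 and 1.41 members on average, LHb-like cells 0.2455 and 0.245, and thalamus-like cells 0.457 and 0.464. At full depth no cell of these 4 classes showed more than 5 of the 9.

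The pair of Chrna3 and Chrnb4 was the most frequent in MHb-like neurons, in 25.4% (23.2 to 27.8) of foot shock cells and 24.6% (22.1 to 27.3) of control cells. The product of the single shares, which is what independent detection would give, was 23.3% and 22.0%, so the pair was seen 1.09 and 1.12 times as often. Within subclusters this ratio was closer to 1, at 1.00 and 1.02 in the Fgf1 subcluster, 0.987 and 0.987 in the Syt15 subcluster and 0.987 and 1.05 in the Ebf3 subcluster. In the Cck subcluster, where both genes are lowest, it was 1.24 and 1.37, from 4.82% and 4.90% of cells. LHb-like cells held the pair in 0.426% (0.0976 to 1.18) and 0.0977% (0.00145 to 0.605).

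Chrna3 with Chrnb3 was the next pair, in 11.6% and 10.0% of MHb-like cells, at 1.33 and 1.36 times the product. In the Fgf1 subcluster it was in 27.1% (21.7 to 33.0) and 29.6% (23.01 to 36.9) of cells, at 0.997 and 1.03 times the product. All 3 of Chrna3, Chrnb4 and Chrnb3 were seen together in 6.54% (5.30 to 7.97) and 5.77% (4.47 to 7.32) of MHb-like cells. By the mean of both libraries, the 3 other pairs among the leading 5 held Chrnb4, with Chrnb3 in 10.1% and 8.77% of cells, with Chrnb2 in 7.42% and 7.05%, and with Chrna4 in 6.46% and 8.37%.

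Some pairs were rarer than the product. Chrna4 with Chrnb3 was in 1.47% (0.906 to 2.25) of foot shock and 1.17% (0.620 to 1.99) of control MHb-like cells, at 0.561 and 0.425 times the product. In the Ebf3 subcluster, which held both genes, the pair was in 3.85% (1.20 to 8.99) and 5.17% (1.83 to 11.2) of cells, at 0.967 and 1.20 times the product. Chrna4 with Chrnb2 was in 1.25% (0.736 to 1.98) and 1.66% (0.992 to 2.60) of MHb-like cells, at 0.639 and 0.708 times the product, against 4.88% (0.620 to 16.3) and 7.56% (3.08 to 14.98) of thalamus-like cells. In LHb-like cells it was the most frequent pair by the same mean, at 0.980% and 0.5105%. Chrna6 with Chrnb3 was seen in 6 foot shock and 5 control MHb-like cells at full depth.

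**Figure D4:**
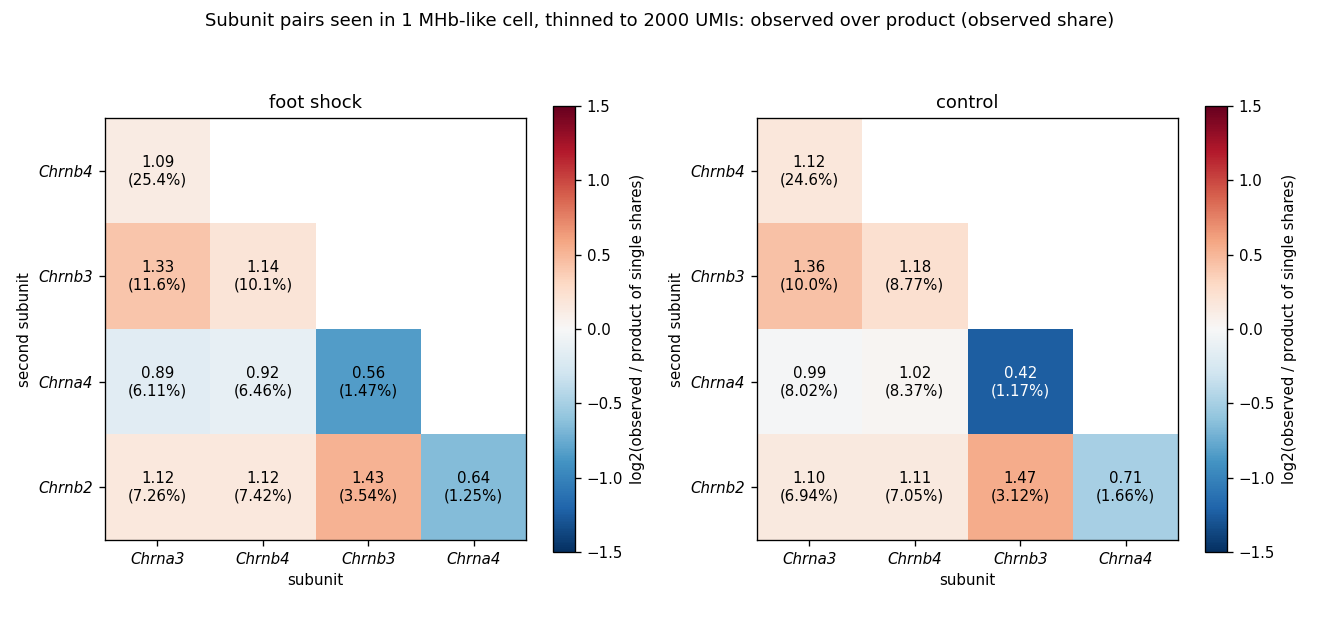
Pairs of 5 subunit genes in single MHb-like cells thinned to 2000 UMIs, for the foot shock library (left) and the control library (right); each square gives the share of cells with both genes divided by the product of the single shares, with that share in parentheses, and the colour is the log2 of the ratio. Chrna4 with Chrnb3 lies lowest (0.561 and 0.425) and Chrnb2 with Chrnb3 highest (1.43 and 1.47).

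Chrna3 and Chrnb4 also varied together across classes and subtypes. Over 36 points, each a class or subtype in 1 library, Chrnb4 had the highest Pearson r with Chrna3 among 10649 genes (r = 0.971), followed by Slc17a7, a vesicular glutamate transporter (0.946), and Ccdc155 (0.925). Chrnb3 was most like Clec18a (0.962), Gm2990 (0.961) and Slc18a3 (0.928), with 0.884 to Chrna3. Chrnb2 was most like Sult4a1 (0.957), Ndrg4 (0.949) and the neuronal enolase Eno2 (0.949), genes known from neurons in general, and had only 0.332 to Chrna3. Chrna4 had no close counterpart, with Grin3a, an NMDA receptor subunit gene, first at 0.786. The points share their library and free RNA, and Slc18a3 is a class marker, so these values are a description.

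The genes beside the subunits did not share their restriction to MHb-like neurons. Psma4, a proteasome subunit on the Chrna5 side, had MHb-like over LHb-like ratios of 1.06 (0.869 to 1.29) in the foot shock library and 1.27 (1.05 to 1.54) in the control library. Ube2q2, on the Chrnb4 side, had 1.25 (1.10 to 1.43) and 1.27 (1.14 to 1.41). Beside Chrnb3 and Chrna6, Eif4ebp1 was near 0 UMIs, and Unc5d, a netrin receptor gene 1232772 bases away, ran the other way at 0.0123 and 0.0110.

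Of 24 accessory genes found in the files (chaperones, Ly6-family modulators and the genes of acetylcholine handling), 17 reached 20 UMIs in both libraries. In MHb-like neurons 4 of the 17 were at least 2-fold higher than in LHb-like neurons and 6 were at least 2-fold lower, in both libraries. Over all genes 6.36% and 6.63% were called higher in the foot shock and control library, and 12.5% and 13.7% lower. The share of all genes called in both libraries was not computed. The 4 higher ones all serve acetylcholine handling: Chat, its synthetic enzyme (56.4 and 45.8 CPM in MHb-like neurons), Slc18a3, its vesicular transporter (73.4 and 66.3 CPM), Slc5a7, the choline transporter (428 and 432.5 CPM), and Prima1, the membrane anchor of acetylcholinesterase (13.2 and 12.9 CPM). In LHb-like neurons these 4 lay at 1.31 and 0, 1.045 and 1.36, 16.7 and 10.7, and 3.13 and 2.92 CPM, all below free RNA. Chat, Slc18a3 and Slc5a7 are among the markers that name MHb-like clusters, so their higher level there follows in part from the naming. Prima1 is not among these markers.

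The 6 lower ones included Ache, the enzyme that breaks acetylcholine down, at 30.9 and 36.7 CPM in MHb-like against 106 and 117 CPM in LHb-like neurons. Tmem35, which encodes a chaperone known for assembly of the alpha-7 receptor, stood at 64.2 and 58.7 CPM in MHb-like against 238 and 197 CPM in LHb-like neurons. Lypd1, a Ly6-family modulator of nicotinic receptors, stood at 2.13 and 1.59 CPM against 42.0 and 48.2 CPM, and its relative Lypd6 at 1.60 and 1.59 CPM against 4.96 and 3.70 CPM. Vsnl1, a calcium sensor known to raise surface alpha-4 beta-2 receptors, stood at 4.80 and 5.95 CPM against 127 and 153 CPM, and Ywhah, a 14-3-3 protein gene, at 319 and 318 CPM against 847 and 843 CPM. The MHb-like levels of Lypd1, Lypd6, Vsnl1 and Ywhah lay below free RNA in both libraries, as did Lypd6 in control LHb-like neurons.

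Glia showed little of the family. Oligodendrocyte-like and astrocyte-like cells had all 5 main subunits below free RNA in both libraries. Oligodendrocyte precursor-like cells had Chrna4 above free RNA in both, at 76.1 CPM (41.6 to 128) from 14 UMIs in 103 foot shock cells and at 62.7 CPM (38.8 to 95.8) from 21 UMIs in 245 control cells. Committed precursor-like cells, the next stage, had 0 Chrna4 UMIs in both libraries, which allows up to 15.8 CPM and 10.3 CPM. Among the precursor-like cells with a Chrna4 UMI, 53.9% and 52.6% also held a UMI of Tac2, Pou4f1, Gap43 or Snap25, against 55.6% and 52.7% of those without one. The part of neuron RNA in the Chrna4 counts was not tested.

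Foot shock and control MHb-like neurons had similar subunit levels. Of 6 measured members, 0 passed 1.5-fold in either direction, where 2.98% of all genes were called higher and 4.54% lower. The ratios were 1.04 (0.975 to 1.11) for Chrna3, 1.05 (0.987 to 1.12) for Chrnb4, 1.095 (0.982 to 1.22) for Chrnb3 and 1.03 (0.903 to 1.19) for Chrnb2. For Chrna4 the interval did not hold 1, at 0.841 (0.739 to 0.957), and in the 5 subclusters under the rule of Nppa and Syt15 together it was 0.811 (0.701 to 0.938). In each of these 5 alone the ratio was below 1, from 0.758 to 0.916, and its interval held 1. Outside them the Chrna4 ratio was 1.23 (0.736 to 2.065) in the Ebf3, 1.04 (0.557 to 1.97) in the Cck and 0.857 (0.510 to 1.44) in the unassigned subcluster. Chrna5 had a ratio of 0.747 (0.289 to 1.89) from 22 UMIs.

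Chrnb3 in the 5 subclusters of Nppa and Syt15 together stood at 69.5 CPM after foot shock and 40.6 CPM in controls, a ratio of 1.71 (1.34 to 2.21), where 4.13% of all genes were called higher. The Calcrl subcluster, which had the most Chrnb3 of the set, supplied 94 foot shock cells and 43 control cells. Within subclusters the ratio was 1.15 (0.813 to 1.63) in the Calcrl, 1.24 (0.755 to 2.08) in the Wscd1 and 1.385 (0.775 to 2.54) in the Syt15 subcluster. The part of the subtype's makeup in the ratio was not tested. Of the 35 member ratios over MHb-like and LHb-like subtypes, 7 passed 1.5-fold, where 16.1% of the ratios of all genes in these subtypes did, and 4 had intervals without 1. In the division by single UMIs, 1 of 9 member ratios passed 1.5-fold, where 12.7% of the ratios of all genes did, and 3 had intervals without 1. The 1 past 1.5-fold was Chrnb2 in cells with Tac1 and no cholinergic gene, at 25.3 CPM (14.2 to 41.8) after foot shock and 56.8 CPM in controls. Its ratio was 0.446 (0.228 to 0.830), where 11.1% of all genes were called lower. The foot shock interval held the free RNA level of 16.85 CPM. Among the subclusters with Tac1, the Chrnb2 ratio was 1.07 (0.567 to 2.03) in Sema3d, 0.880 (0.4935 to 1.57) in Cck and 0.730 (0.239 to 1.90) in Zfhx4.

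In LHb-like neurons 1 of 5 measured members passed 1.5-fold, Chrnb4 with 14.4 CPM after foot shock and 8.56 CPM in controls (ratio 1.68, 1.11 to 2.55), where 3.50% of all genes were called higher and 5.00% lower. Both levels lay below free RNA, and Tac2, an MHb marker, stood at 23.2 and 8.95 CPM in the same cells. Its part in the ratio was not tested. Over the class, Chrnb2 had a ratio of 0.858 (0.742 to 0.992) and Chrna4 of 1.07 (0.826 to 1.39). In the Chrm2 subtype Chrna4 stood at 17.9 CPM from 16 UMIs after foot shock, above free RNA, and at 5.98 CPM from 6 UMIs in controls, below it, the highest of the subtype ratios at 3.00 (1.11 to 9.36). There 6.73% of all genes were called higher. In the Cacna2d1 and Megf11 subcluster Chrnb2 stood at 49.5 CPM (30.2 to 76.4) in 119 foot shock cells and 103 CPM (83.8 to 125) in 248 control cells, a ratio of 0.482 (0.282 to 0.783), where 13% of all genes were called lower. Thalamus-like neurons gave 2 measured members and 0 past 1.5-fold, with Chrna4 at 1.02 (0.664 to 1.53) and Chrnb2 at 0.905 (0.553 to 1.43), where 7.36% of all genes were called higher and 15% lower.

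In glia the foot shock library carried more MHb subunit RNA. Oligodendrocyte precursor-like cells had Chrna3 at 119.6 CPM from 22 UMIs after foot shock and 23.9 CPM from 8 UMIs in controls, and Chrnb4 at 103 CPM and 26.9 CPM, so that 2 of 3 measured members passed 1.5-fold, where 15.1% of all genes were called higher and 18.7% lower. Tac2 stood at 114 and 26.9 CPM in the same cells. Both foot shock levels of Chrna3 and Chrnb4 lay above free RNA (45.1 and 51.1 CPM), and both control levels below it. Of the precursor-like cells with a Chrna3 UMI, 7 of 7 and 4 of 5 also held a UMI of Tac2, Pou4f1, Gap43 or Snap25. Among those without a Chrna3 UMI the share was 52.1% in each library. Microglia-like cells had Chrna3 at 116 CPM from 17 UMIs and 11.6 CPM from 2 UMIs, with Tac2 at 82.0 and 5.78 CPM, and 9 of 9 foot shock and 0 of 2 control microglia-like cells with a Chrna3 UMI also held a neuron marker UMI. The foot shock level of Chrna3 there lay above free RNA (45.1 CPM) and the control level below it (32.4 CPM). Oligodendrocyte-like cells had Chrna3 at 9.63 and 2.96 CPM and Chrnb4 at 10.2 and 2.54 CPM, below free RNA, so that 2 of 2 measured members passed 1.5-fold, where 5.07% of all genes were called higher and 14.0% lower. Tac2, Gap43 and Pou4f1 stood, by their median in foot shock and control cells, at 57.45% and 17.3% of their free RNA level in precursor-like cells, at 38.5% and 3.53% in microglia-like cells and at 8.82% and 5.93% in oligodendrocyte-like cells. The part of neuron RNA in these ratios was not tested.

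**Figure D5:**
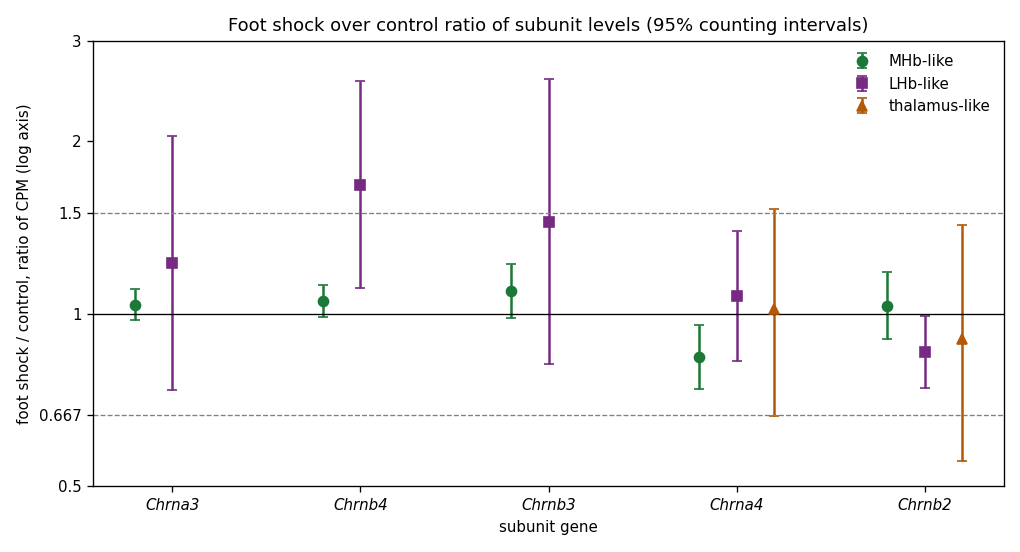
Ratio of the level in CPM in the foot shock library to that in the control library for 5 subunit genes, on a logarithmic axis; points are MHb-like, LHb-like and thalamus-like neurons with at least 20 UMIs, bars are 95% counting intervals and dashed lines mark 1.5-fold either way. The MHb-like ratios lie between 0.841 and 1.095, and the 1 point past 1.5-fold is Chrnb4 in LHb-like neurons (1.68), where both levels are below free RNA.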

How the data were processed

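The deposited files hold raw UMI counts per gene and barcode, made by the authors with Cell Ranger 2 against mm10, per the submitters' processing notes. For the annotation, the release was not given in the sources used here. Barcodes with at least 1000 UMIs, 500 to 6000 genes and at most 20% mitochondrial UMIs were kept. Scrublet (expected doublet rate 0.08) removed 80 foot shock and 242 control barcodes. Cells were clustered with scanpy 1.11.5 (2000 variable genes, 30 principal components, 15 neighbours, Leiden resolution 1.0), without nicotinic subunit and accessory genes. A cluster was named from at least 3 markers. The rule for clusters holding markers of a second class was edited after seeing the endothelial-like cluster. UMIs were summed per class and library. Ratios needed 20 UMIs over both sides, and calls used 2-fold between classes and 1.5-fold between libraries. Poisson, conditional binomial and Clopper-Pearson intervals are at 95%, and an upper limit at 0 UMIs is 3 UMIs. Shares were thinned to 1000 UMIs a cell and pairs to 2000, leaving out shallower cells. The calculations were tested on simulated data. edgeR 4.0.16 supplied TMM scaling for 1 alternative, with no test. The subunits, marker lists and accessory list were chosen with earlier results of these data known. Genes named for likeness are the 3 with the highest Pearson r of log2(CPM + 10) over genes with at least 200 UMIs. Positions are from GENCODE on mm10, to which 28339 of 28692 IDs matched.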

Additional observations from a re-analysis of the deposited data

Results flagged for a closer look

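Subunit signal also appeared in 2 neuron clusters that met no class rule and so entered no comparison. A cluster of 51 foot shock and 7 control cells, with Fibcd1, Tacr1 and Chrna3 among its leading genes, had Chrna3 at 259.2 CPM, Chrnb4 at 164.9 CPM and Chrnb3 at 90.31 CPM after foot shock, all above free RNA. Its control cells had Chrna3 at 63.42 CPM from 3 UMIs and Chrnb4 at 105.7 CPM from 5 UMIs. Both intervals reached below free RNA, and Chrnb3 had 0 UMIs there. A cluster of 33 foot shock and 88 control cells led by Ctxn3 and Pdyn had Chrnb2 at 267.9 CPM after foot shock and 245.2 CPM in controls, and Chrna4 at 107.0 CPM in controls. Accessory genes Lypd6 and Lypd6b were also among the leading genes of the cluster with Ctxn3.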

How the results depend on the processing

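Under 18 other settings, and 2 more chosen after seeing the data, 0 called values changed direction. Of the values recomputed, 28 shares, 20 levels, 14 ratios between classes and 8 ratios between MHb-like subtypes moved beyond the counting interval of the main value, and 6 counts moved by over 1.5 times. Classes set from marker UMIs of single cells moved 16 of 60 values, the most of any setting: members at least 2-fold higher in MHb-like than in LHb-like neurons numbered 3 in each library, with Chrna4 in LHb-like neurons at 40.57 CPM after foot shock and 44.45 CPM in controls and Chrna3 there at 25.12 and 22.87 CPM. Keeping doublets moved 9 of 61, with Chrna3 in LHb-like neurons at 15.89 and 16.23 CPM. The count of members past 1.5-fold between foot shock and control LHb-like neurons, 1 in the main setting, was 2 with a floor of 500 UMIs or of 2000 UMIs a cell, 0 with doublets kept, 3 with no UMI minimum and 0 with a minimum of 100 UMIs. With no UMI minimum, 1 member was at least 2-fold lower in MHb-like than in LHb-like neurons of foot shock mice. Shares move with depth. The Chrna3 share of MHb-like cells was 47.73% after foot shock and 46.58% in controls at 2000 UMIs, and 62.21% and 68.26% unthinned. The Chrnb2 share of LHb-like cells was 13.7% and 15.73% at 2000 UMIs, and 23.35% and 31.68% unthinned. The pair of Chrna3 and Chrnb4 was in 10.06% and 10.23% of MHb-like cells at 1000 UMIs, and in 45.13% and 53.59% unthinned. No paired analysis was possible because each group is 1 library. With 1 library a group, differences between libraries cannot be told apart from those between conditions.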
